A study of Rattus norvegicus with 24 samples.

Results

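Forebrain RNA of 4 male F344 rats given 50 mg/kg D-serine was compared with that of 4 rats given vehicle (0 mg/kg). The 8 arrays were chosen by the dose in their titles, out of 24 arrays in 6 groups of 4. The other groups, given 5, 20, 200 or 500 mg/kg, entered the same model and share its estimate of the spread. All rats were 11 to 12 weeks old, were dosed once, were killed 96 h later and were hybridised 1 rat to 1 Affymetrix rat expression array. The labels name no route, no vehicle composition and no dissection beyond a small forebrain piece, and they number the vehicle and 50 mg/kg animals in separate runs, so any order of handling cannot be told apart from the dose.

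D-serine is the mirror form of the common amino acid L-serine and is made from it in the brain by serine racemase. It binds the co-agonist site of the NMDA receptor, a glutamate-gated channel that admits calcium only when glutamate and a co-agonist are bound together. Calcium entry through this channel shapes synaptic strength, vesicle traffic and activity-dependent transcription, which proceeds partly through the factor CREB and its binding element, the CRE.

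Levels are given as log2(quantile normalized intensity + 16), so a difference of 1 is a doubling for a bright probe set and understates the change of a dim one. A gene is represented by the probe set with the highest mean over the 24 arrays, called its brightest, and it is said to have risen or fallen where the limma test, adjusted by Benjamini-Hochberg over 18625 probe sets, gave an adjusted p under 0.05. Errors of differences are standard errors (SE) of that fit with 4 arrays in each group, and errors of levels are SD with n = 4. In bulk tissue, fewer cells of a type and less RNA per cell cannot be told apart.

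The 8 pieces of tissue were not alike. Markers of striatal projection neurons (17 measured) had a mean level of 8.29, 8.23, 8.34 and 9.51 in the vehicle arrays and 9.37, 7.54, 7.55 and 7.57 in the 50 mg/kg arrays, so vehicle replicate 4 and 50 mg/kg replicate 1 stood above the rest. Ttr, the thyroxine carrier of the choroid plexus, stood at 6.71, 13.09, 6.42 and 7.84 in vehicle and at 6.29, 6.11, 13.02 and 7.02 at 50 mg/kg, so vehicle replicate 2 and 50 mg/kg replicate 3 stood apart there, and the same 2 arrays were highest for thalamic markers, at 9.23 and 8.82 against 7.46 to 7.64 in the other 6. Cortical and hippocampal markers were measured for 19 of the 20 present on the array and varied less, from 8.85 to 9.20 in vehicle and from 8.98 to 9.33 at 50 mg/kg. The 3' to 5' signal ratio of the control probe sets, a sign of RNA integrity and labelling that rises as long transcripts are lost, was lower at 50 mg/kg for actin, at 1.87 ± 0.08 against 2.56 ± 0.19 (log2, SD, n = 4), and for Gapdh, at 0.34 ± 0.17 against 0.83 ± 0.06, with no overlap between groups. The exact two-sided permutation test gave p = 0.0286 for each, the smallest that 4 against 4 arrays allow, and 0.0429 after adjustment over 3 controls. The hexokinase ratio was 2.23 ± 0.11 against 2.25 ± 0.53 (exact permutation p = 0.971).

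At 50 mg/kg, 41 of 10205 genes passed, which is 0.402% of them: 23 rose (0.225%) and 18 fell (0.176%). The largest rise among genes with a vehicle mean above the level of 5.98 needed to be tested was in Svop, a synaptic vesicle membrane protein, and the largest falls were in Myl9, a myosin regulatory light chain, and Fbxo15, an F-box protein. Fscn1, an actin-bundling protein, had a larger difference, but its vehicle mean of 5.94 was under that level, so it was tested only because treated groups were higher. Rises ran from 0.28 to 0.85 with a median of 0.53, falls from -0.33 to -0.71 with a median of -0.52, and no gene that passed moved by 1 log2 unit. In 39 of the 41 genes the 4 treated and the 4 vehicle arrays did not overlap, the exceptions being Plekhb2 and Clta, 2 rises, whereas 6.25% of all genes tested had groups that did not overlap, 3.13% with treated arrays above and 3.13% with them below. The 41 genes were chosen by a test on these same arrays, so their separation follows largely from that choice and is a description. Over all genes the median difference was -0.01 and 4928 of 10205 lay above vehicle. Without an adjustment 2410 of the 18625 probe sets, or 12.9%, had p under 0.05.

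**Figure D1:**
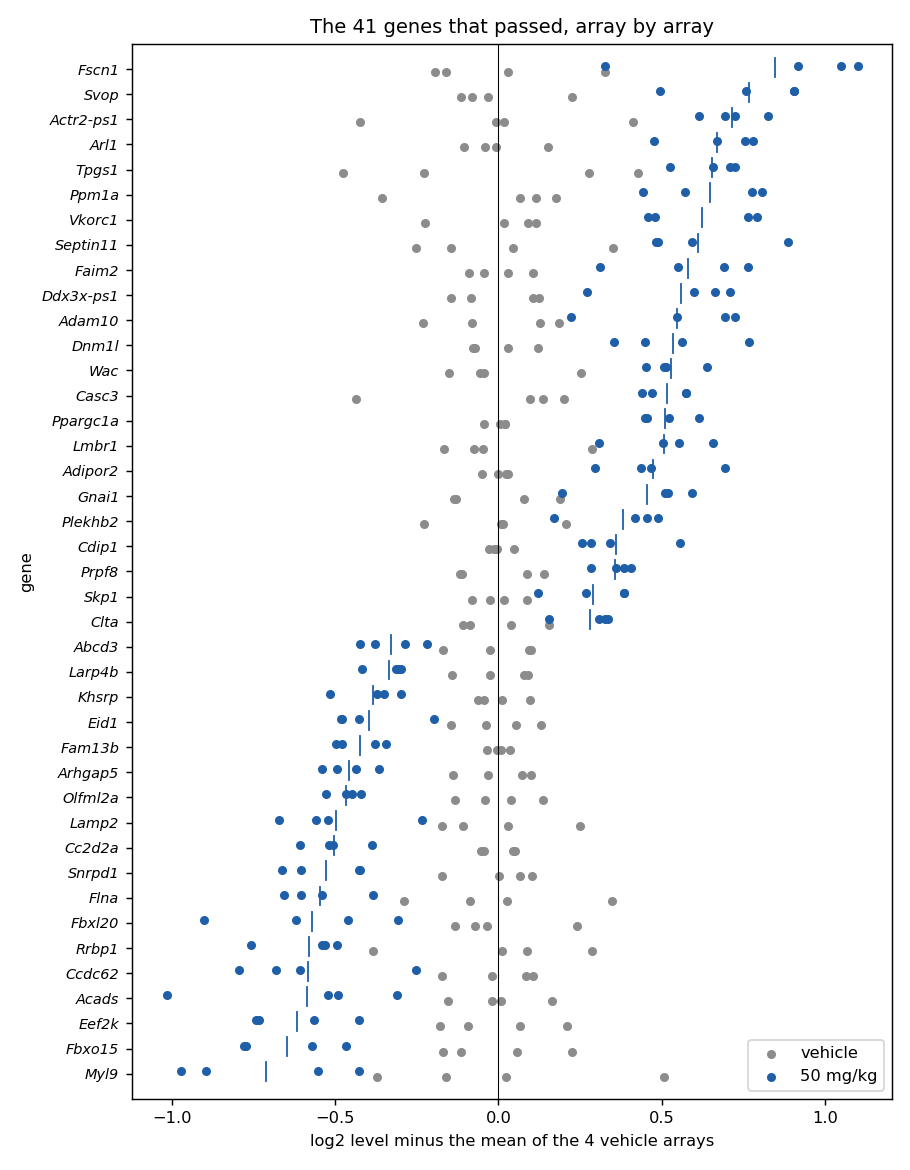
Level of each of the 41 genes that passed, array by array, as log2 level minus the mean of the 4 vehicle arrays (grey, vehicle; blue, 50 mg/kg; vertical bar, mean of the 4 treated arrays). The difference of Svop is 0.77 and that of Myl9, the largest fall, -0.71. Fscn1 at 0.85 has a vehicle mean under the level needed to be tested. In 39 of 41 genes, which were chosen on these same arrays, the blue and grey points are separate.

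The count depended on single arrays. Without 50 mg/kg replicate 4 it was 18 probe sets in place of 161, without replicates 2 or 3 it was 48 or 57, and without replicate 1 it was 406. Without vehicle replicate 1 it was 60, without vehicle replicate 4 it was 68, and without 500 mg/kg replicate 4, an array of another group that stands apart from the rest, it was 452. Removal of vehicle replicate 2 and 50 mg/kg replicate 3 left 22, removal of vehicle replicate 4 and 50 mg/kg replicate 1 gave 248, and removal of all 4 of these arrays left 32. With the Gapdh ratio of each array as a covariate, limma called 0 probe sets, and 1164 reached p under 0.05 before adjustment. In that fit all 41 genes kept the sign of their difference, with a median of 0.36 in the called direction in place of 0.53. The covariate moved the genes unevenly, as in these examples chosen after their values were seen. Svop, at 0.23 ± 0.22, and Gnai1, at 0.14 ± 0.16, came nearer to vehicle. Fbxl20, at -0.87 ± 0.19, and Lmbr1, at 0.70 ± 0.16, lay further from it than without the covariate. As 0 probe sets passed with the covariate, each rise and fall below is one of the fit without it.

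Arl1 and Dnm1l were the only genes of the 41 that passed in each of the 24 fits that left out 1 array. For Arl1 this holds of the probe set that is brightest over the 24 arrays, treated ones included: in vehicle alone another was brighter and did not pass, as given with its values. Both act in membrane remodelling: Arl1 is an ARF-like GTPase that recruits golgins to the trans-Golgi, and Dnm1l is the dynamin-related GTPase that divides mitochondria and peroxisomes. Their promoters are printed here with those of Fscn1 and Ppargc1a, the 2 genes among the 41 whose promoter holds a full CRE. These 4 were picked after the values were seen. The sequences are RefSeq's for GRCr8, from 250 bases before to 50 bases after the annotated start, 5′ to 3′ on the gene's strand, with the CRE TGACGTCA in capitals.
Fscn1: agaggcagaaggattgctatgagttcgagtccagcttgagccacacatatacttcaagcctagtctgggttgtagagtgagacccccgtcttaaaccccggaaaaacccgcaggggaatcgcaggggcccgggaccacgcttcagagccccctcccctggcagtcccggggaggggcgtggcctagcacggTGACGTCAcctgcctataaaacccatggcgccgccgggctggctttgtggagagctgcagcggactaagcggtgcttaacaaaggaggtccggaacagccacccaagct
Ppargc1a: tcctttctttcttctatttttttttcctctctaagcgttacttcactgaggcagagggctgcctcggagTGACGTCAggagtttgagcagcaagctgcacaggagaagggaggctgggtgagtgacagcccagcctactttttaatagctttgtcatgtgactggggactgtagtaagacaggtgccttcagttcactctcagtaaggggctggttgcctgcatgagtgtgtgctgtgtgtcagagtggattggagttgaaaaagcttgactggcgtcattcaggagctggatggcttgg
Arl1: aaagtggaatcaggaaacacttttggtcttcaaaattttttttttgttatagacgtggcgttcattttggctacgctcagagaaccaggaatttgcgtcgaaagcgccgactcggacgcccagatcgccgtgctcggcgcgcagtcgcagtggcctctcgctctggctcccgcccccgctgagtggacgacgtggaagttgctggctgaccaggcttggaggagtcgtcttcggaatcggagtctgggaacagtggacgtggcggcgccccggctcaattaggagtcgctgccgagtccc
Dnm1l: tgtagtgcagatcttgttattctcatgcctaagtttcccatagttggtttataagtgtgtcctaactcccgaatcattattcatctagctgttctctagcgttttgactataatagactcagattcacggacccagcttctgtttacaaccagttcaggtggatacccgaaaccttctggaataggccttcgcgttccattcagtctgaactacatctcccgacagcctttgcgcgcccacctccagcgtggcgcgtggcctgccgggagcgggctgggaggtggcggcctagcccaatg

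The Fscn1 window is chr12:16723685-16723984 on the minus strand and its CRE spans bases 192 to 199 of the window. That of Ppargc1a is chr14:63634058-63634357 on the plus strand with the CRE at bases 70 to 77. The Arl1 window, chr7:25007151-25007450, and the Dnm1l window, chr11:98085147-98085446, both on the plus strand, have no such match. A promoter was listed for 35 of the 41 genes. The CRE, TGACGTCA, which reads the same on both strands, was in 2 of the 35 (5.71%) and in 525 of 27457 RefSeq promoters of the same length (1.91%). The NRF1 site, looked for on both strands, was in 1 of the 35, Plekhb2, against 0.932% of all promoters. The CArG box was in 0 of the 35 against 1.64% of all. Of the 2 genes with the CRE, Fscn1 entered the test only through treated groups. The shares over all promoters are not those of the genes tested, and no difference between shares was tested. These are matches of letters and no measure of binding.

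Arl1 stood at 8.28, 8.48, 8.22 and 8.32 in the vehicle arrays and at 8.80, 9.10, 9.08 and 8.99 at 50 mg/kg. All 4 treated arrays lay above all vehicle arrays, and the difference of 0.67 ± 0.09 (SE) had limma's adjusted p of 0.00312. With 1 array left out it ranged from 0.63 to 0.73. The other Arl1 probe set was the brighter one in vehicle, at 8.60 against 8.32, and differed by 0.21 ± 0.08 (adjusted p = 0.267 in limma), so the choice of probe set drew on arrays in which the one used is high. Fscn1 and Adipor2 are the other 2 of the 41 genes of which this is true. In the fit that carries the Gapdh ratio the difference of the probe set used was 0.36 ± 0.12 (adjusted p = 0.769). Dnm1l stood at 8.49, 8.48, 8.59 and 8.68 against 8.91, 9.01, 9.12 and 9.33. The groups were again separate, with a difference of 0.53 ± 0.09 (adjusted p = 0.00874 in limma), or 0.27 ± 0.12 (adjusted p = 0.769) with the Gapdh ratio as covariate. Among the Golgi GTPases and coat proteins listed, Arl1 was the 1 of 29 measured that rose, 0 fell, and 20 of 29 lay above vehicle with a median of 0.10. Dnm1l was likewise the 1 of 12 fission and fusion genes that rose, with a list median of 0.06. Its partners were at 0.31 ± 0.16 for Opa1, which fuses inner membranes, and -0.25 ± 0.09 for Mfn1, which fuses outer membranes, neither of which passed.

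Ppargc1a encodes PGC-1 alpha, a coactivator that drives transcription of mitochondrial genes. It had a narrow vehicle group, at 7.80, 7.79, 7.80 and 7.74, against 8.30, 8.40, 8.23 and 8.24 at 50 mg/kg. Every treated array was well clear of the vehicle arrays, and the difference was 0.51 ± 0.10 (adjusted p = 0.015 in limma). A second Ppargc1a probe set of nearly the same level differed far less and did not pass, as given with the probe sets below. Genes of energy metabolism were described as lists beside it. Of 31 measured genes of oxidative phosphorylation 0 passed, 22 lay above vehicle and the median was 0.07, with Atp5pb at 0.29 ± 0.08, Sdha at 0.24 ± 0.06 and Atp5f1a at 0.30 ± 0.09. Of 13 genes of the citrate cycle 0 passed and 12 lay above vehicle, the median being 0.11 and the highest value 0.19 in Mdh2, malate dehydrogenase. Of 14 glycolytic genes 0 passed and 10 lay above, with a median of 0.09. Against the same vehicle arrays, the oxidative phosphorylation median was 0.12, 0.09, 0.06 and 0.03 at 5, 20, 200 and 500 mg/kg. At these doses it was 0.14, 0.19, 0.09 and 0.04 for the citrate cycle and 0.16, 0.16, 0.11 and 0.08 for glycolysis. Medians above vehicle were thus not particular to 50 mg/kg. Acads, which begins the oxidation of short fatty acids in mitochondria, fell by 0.58 on the log2 scale (SE 0.12, adjusted p = 0.0197 in limma), from 7.83, 7.86, 8.01 and 7.69 to 7.36, 7.54, 7.33 and 6.83. The treated array at 6.83 was the lowest and the groups were separate.

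**Figure D2:**
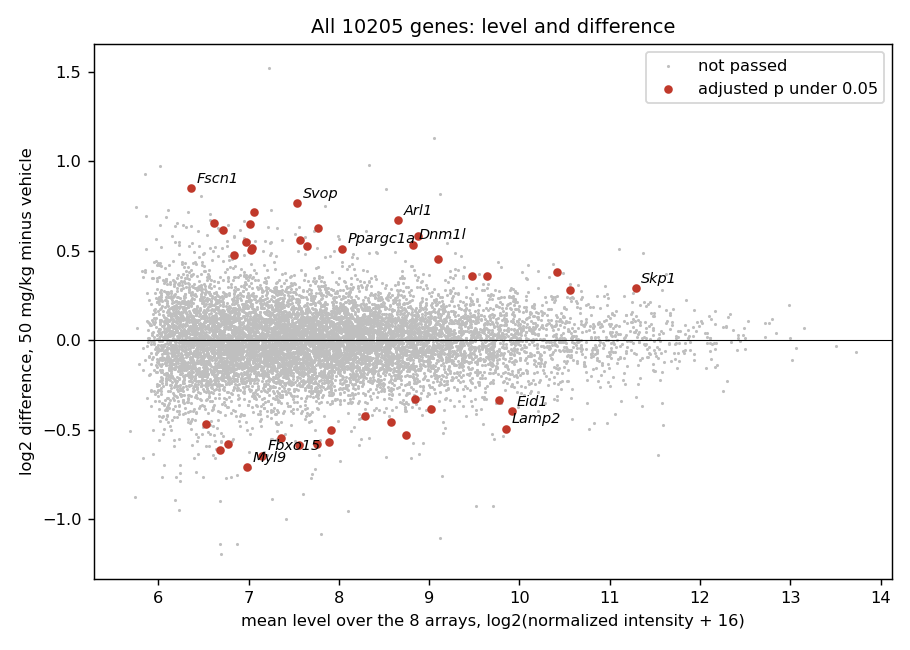
Mean level over the 8 arrays (log2(normalized intensity + 16)) against the log2 difference, 50 mg/kg minus vehicle, for all 10205 genes (grey) and the 41 with limma's adjusted p under 0.05 (red). The rise of Fscn1 lies among dim genes and that of Skp1 among bright ones, and genes that did not pass reach larger differences than those that did.

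Svop resembles the transporters of synaptic vesicles. It stood at 7.04, 7.38, 7.07 and 7.12 in vehicle and at 7.65, 8.06, 7.91 and 8.06 at 50 mg/kg, a separate group 0.77 ± 0.16 higher (adjusted p = 0.0248 in limma). With the Gapdh ratio as covariate it was 0.23 ± 0.22 (adjusted p = 0.823 in limma). It was the 1 of 27 measured genes of vesicle release and recycling that rose, with 0 falls, 18 of 27 above vehicle and a median of 0.08. Syt1, the calcium sensor of vesicle release, had a larger difference and did not pass. It stood at 8.54, 8.45, 8.70 and 8.25 against 9.04, 9.69, 9.69 and 10.04, a difference of 1.13 ± 0.30 with no overlap of groups (adjusted p = 0.069 in limma). Sh3gl2, the endophilin of vesicle endocytosis, was at 0.73 ± 0.20 and Cplx2, a complexin, at -0.37 ± 0.11, and neither passed. Clta, the clathrin light chain a, rose by 0.28 ± 0.06 and was the smallest rise.

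Fscn1 stood at 5.78, 5.75, 6.27 and 5.97 in vehicle and at 6.27, 6.86, 7.04 and 6.99 at 50 mg/kg. The highest vehicle array and the lowest treated array were level at 6.27, and the difference was 0.85 ± 0.19 (adjusted p = 0.0321 in limma), or 0.41 ± 0.28 with the Gapdh ratio as covariate. The vehicle mean of 5.94 is under the 5.98 needed to be tested, so this probe set entered the test through treated groups. The Fscn1 probe set that was brightest in vehicle, at 5.96, differed by 0.30 ± 0.14 (adjusted p = 0.357 in limma). Fscn1 was the 1 of 33 measured genes of the actin list that rose, with 20 above vehicle and a median of 0.09. Septin11, a filament-forming GTPase of dendritic spines, rose by 0.61 ± 0.12, from 6.76, 6.45, 6.15 and 6.26 to 7.29, 6.89, 7.0 and 6.89. All treated arrays were above all vehicle arrays. Tpgs1, a subunit of the enzyme complex that adds glutamates to tubulin, rose by 0.65 ± 0.15, while of 34 tubulins, microtubule proteins and motors 0 passed and the median was -0.02, or 0.01 with median centring. Actr2-ps1 (0.71 ± 0.17) and Ddx3x-ps1 (0.56 ± 0.13) carry pseudogene symbols, and their probe sets may also read their near-identical parent genes, so which transcript rose is uncertain.

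Myl9 and Flna, which both fell, encode a contractile and an actin-crosslinking protein that are abundant in vessel walls and meninges. Myl9 stood at 7.84, 7.18, 7.36 and 6.96 in vehicle and 6.44, 6.36, 6.91 and 6.79 at 50 mg/kg, separate by a small gap, with a difference of -0.71 ± 0.16 (adjusted p = 0.0371 in limma). Flna, filamin A, which crosslinks actin to the membrane, fell from 7.98, 7.66, 7.55 and 7.34 to 7.09, 6.97, 7.25 and 7.03, a difference of -0.55 ± 0.12. Its lowest vehicle array lay just above its highest treated array. Beside these, 0 of 19 measured markers of meningeal fibroblasts and collagens passed, 3 of 19 lay above vehicle and the median was -0.30. Their mean level per array ran from 7.22 to 7.91 in vehicle and from 7.18 to 7.40 at 50 mg/kg, with Col3a1, a fibrillar collagen, at -0.89 ± 0.25 (adjusted p = 0.0952 in limma). Of 14 endothelial markers 0 passed, 2 lay above vehicle and the median was -0.15, and of 11 markers of pericytes and smooth muscle 0 passed and 6 lay above, with a median of 0.09. Against the same vehicle arrays the meningeal median was -0.23, -0.06, -0.17 and -0.28 at 5, 20, 200 and 500 mg/kg. The endothelial one was -0.13, -0.16, -0.18 and -0.22, so neither low value is particular to 50 mg/kg. The part of these cell types in the falls of Myl9 and Flna was not tested. Arhgap5, a GTPase-activating protein, fell by 0.46 on the log2 scale (SE 0.09, adjusted p = 0.0147 in limma), and Olfml2a, a secreted olfactomedin-domain protein, by 0.47.

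Skp1, the adaptor that joins F-box proteins to the SCF ubiquitin ligase, rose by 0.29 ± 0.07, from 11.06, 11.23, 11.12 and 11.16 to 11.26, 11.41, 11.53 and 11.53. The groups were separate by a narrow margin. The F-box genes Fbxo15 and Fbxl20 fell. Fbxo15 stood at 7.69, 7.30, 7.36 and 7.53 against 6.70, 7.0, 6.90 and 6.69, a difference of -0.65 ± 0.12 (adjusted p = 0.0146 in limma), and Fbxl20, whose product targets the presynaptic protein RIM1, stood at 8.42, 8.14, 8.04 and 8.11 against 7.28, 7.56, 7.87 and 7.72, a difference of -0.57 ± 0.13. In both the groups were separate. Lamp2, a lysosomal membrane protein needed for autophagy, fell by 0.50 on the log2 scale (SE 0.12), from 9.93 to 10.35 in vehicle to 9.43 to 9.87 at 50 mg/kg. Those ranges were separate. Of 30 proteasome subunits 0 passed and 22 lay above vehicle, with a median of 0.05.

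Of the RNA-handling genes, Casc3, a core protein of the exon junction complex, rose by 0.51 ± 0.11, and Prpf8, the central protein of the spliceosome, rose by 0.36 ± 0.08. Snrpd1, one of the Sm proteins of the spliceosomal ribonucleoproteins, stood at 9.07, 9.01, 8.84 and 9.11 in vehicle and 8.41, 8.58, 8.35 and 8.58 at 50 mg/kg. It was lower in every treated array, by -0.53 ± 0.10 (adjusted p = 0.0147 in limma), or -0.30 ± 0.15 with the Gapdh ratio as covariate. Khsrp, which binds AU-rich elements and promotes decay, and Larp4b, which binds poly(A)-bearing messages, fell by 0.38 and 0.33 on the log2 scale. Of 40 measured genes on the splicing and RNA-binding list 0 passed, but 7 lay above vehicle and the median was -0.12. Sf3b1, the branch-site protein of the U2 particle, stood at 10.19, 10.17, 10.20 and 10.12 against 9.96, 9.80, 9.80 and 9.62, with no overlap and a difference of -0.38 ± 0.09 (adjusted p = 0.0574 in limma). Eef2k, the kinase that halts translation elongation, fell by 0.62 on the log2 scale (SE 0.15) and Rrbp1, a ribosome receptor of the endoplasmic reticulum, by 0.58 (SE 0.13). Cytosolic ribosomal proteins had 0 of 22 passed, 11 above vehicle and a median of 0.00.

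Other rises were in signalling and membrane genes. Faim2, which protects neurons from Fas-driven death, stood at 8.69, 8.61, 8.49 and 8.54 against 8.89, 9.27, 9.13 and 9.35, separate groups 0.58 ± 0.11 apart (adjusted p = 0.0147 in limma). Vkorc1, the vitamin K epoxide reductase, stood at 7.23, 7.55, 7.57 and 7.47 against 8.22, 7.91, 7.94 and 8.25, a rise of 0.62 ± 0.13 with no overlap. Adam10, the alpha-secretase that sheds the amyloid precursor and N-cadherin, rose by 0.55 ± 0.12, Ppm1a, a metal-dependent phosphatase, by 0.65 ± 0.15, Wac, an adaptor of histone H2B ubiquitination, by 0.53 ± 0.10 and Lmbr1, a membrane protein, by 0.51 ± 0.11. Gnai1, an inhibitory G protein alpha subunit, rose by 0.45 ± 0.11 and Adipor2, an adiponectin receptor, by 0.47 ± 0.10. The remaining rises were Plekhb2 (0.38), a membrane-bound pleckstrin-domain protein, and Cdip1 (0.36), a p53-induced death protein.

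Among the falls, Cc2d2a, a protein of the ciliary transition zone, and Fam13b had tight groups. Cc2d2a stood at 8.22, 8.12, 8.12 and 8.21 against 7.78, 7.56, 7.66 and 7.65, a difference of -0.50 ± 0.11 (adjusted p = 0.0328 in limma). Fam13b stood at 8.51, 8.50, 8.47 and 8.54 against 8.16, 8.03, 8.13 and 8.01, a difference of -0.42 ± 0.09. The 2 groups were far apart in both genes. Ccdc62, a coiled-coil protein, fell by 0.58 on the log2 scale, Eid1, an inhibitor of the p300 acetyltransferase, by 0.40 and Abcd3, a peroxisomal fatty acid transporter, by 0.33.

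The genes closest to D-serine itself did not pass. Among NMDA receptor subunits 0 of 5 measured passed, 1 of 5 lay above vehicle and the median was -0.13. Grin1, the obligatory subunit that binds D-serine, stood at 8.72, 9.03, 9.31 and 8.78 against 8.64, 8.88, 8.91 and 8.88, overlapping groups with a difference of -0.13 ± 0.11 (adjusted p = 0.7 in limma). Grin2a was at -0.24 ± 0.20, Grin2b at 0.21 ± 0.26 and Grin3a at -0.02. For Grin2a, 50 mg/kg replicate 1 stood at 8.84 and the other treated arrays at 9.48 to 9.81. Its dimmer probe sets lay above vehicle, at 0.09 ± 0.14 and 0.31 ± 0.25. Those of Grin1 and Grin2b were at -0.30 ± 0.23 and 0.07 ± 0.16. Of 12 measured genes of serine and glycine handling 0 passed, 3 lay above vehicle and the median was -0.08. Slc7a10, the astrocytic and neuronal exchanger that carries D-serine, was at -0.10 ± 0.15, with overlapping groups of 7.36, 7.44, 7.29 and 7.09 against 7.67, 7.02, 7.24 and 6.87. Slc1a4, a neutral amino acid transporter, was at 0.15. The synthetic enzyme Srr had no probe set carrying its symbol alone and the degrading enzyme Dao was too dim to test.

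Other receptor families were spread more widely. For AMPA receptor subunits and their assembly factors 0 of 12 passed and 8 lay above vehicle, with a median of 0.12. Frrs1l, an assembly factor of these receptors, stood at 6.28, 6.13, 6.23 and 6.30 against 6.62, 6.87, 7.06 and 7.07, separate groups 0.67 ± 0.17 apart that did not pass (adjusted p = 0.0635 in limma). For GABA-A receptor subunits 0 of 8 passed and 5 lay above, with a median of 0.30 and with Gabra4 at 0.47 ± 0.26 and Gabrb1 at 0.39 ± 0.20. Kainate and metabotropic receptors had 0 of 11 passed and a median of -0.02, and postsynaptic scaffolds 0 of 18 with a median of -0.06. Without both pairs of arrays that stood apart by tissue markers, the medians were 0.10 for GABA-A and -0.01 for NMDA receptor subunits.

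Activity-regulated immediate-early genes showed no gene that passed at 96 h: 0 of 16, with 14 above vehicle and a median of 0.13. Fos was at 0.29 ± 0.37, with 7.42, 7.41, 7.82 and 6.42 in vehicle and 7.52, 7.36, 7.77 and 7.57 at 50 mg/kg, overlapping groups of which vehicle replicate 4 was the lowest array. Arc, whose product regulates AMPA receptor endocytosis, was at 0.02 ± 0.31, Egr1 at -0.06 ± 0.35 and Bdnf at 0.24 ± 0.25. Nr4a3, an orphan nuclear receptor, was at 0.84 ± 0.38 and Jund at -0.27 ± 0.09, neither of which passed. With both pairs of arrays removed the list median was -0.16, the opposite sign.

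Cell-type markers give the setting of these results. Striatal markers had 0 of 17 passed and 1 above vehicle, with a median of -0.53, and were high in vehicle replicate 4 and 50 mg/kg replicate 1. Without those 2 arrays the median was -0.71. Drd2, the D2 dopamine receptor, stood at 6.86, 7.23, 7.05 and 8.62 against 8.20, 5.69, 5.33 and 5.98, so 3 treated arrays were below and 1 within the vehicle range. Reactive astrocyte markers had 0 of 4 passed and 0 above, with a median of -0.41. Their mean level per array was 8.24 to 8.48 in vehicle and 7.76 to 8.06 at 50 mg/kg, over only 4 of the 10 markers on the array. It was 1 of 4 lists out of 54 whose array means did not overlap between the groups. The others were chromatin regulators, lower at 50 mg/kg, and the Golgi and glycolysis lists, higher there. Among single genes 6.25% had groups that did not overlap, so nothing is read from this count of lists. Against the same vehicle arrays the reactive astrocyte median was -0.48, -0.42, -0.35 and -0.36 at 5, 20, 200 and 500 mg/kg, so its low value is not particular to 50 mg/kg. Among these astrocyte markers Vim, vimentin, was at -0.66 ± 0.19 (adjusted p = 0.0912 in limma) and Gfap at -0.02 ± 0.23. Pan-neuronal markers had 0 of 14 passed and a median of -0.09, myelinating oligodendrocytes 0 of 13 and -0.08, microglia 0 of 11 and -0.11. The part of tissue makeup in the 41 calls was not tested.

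**Figure D3:**
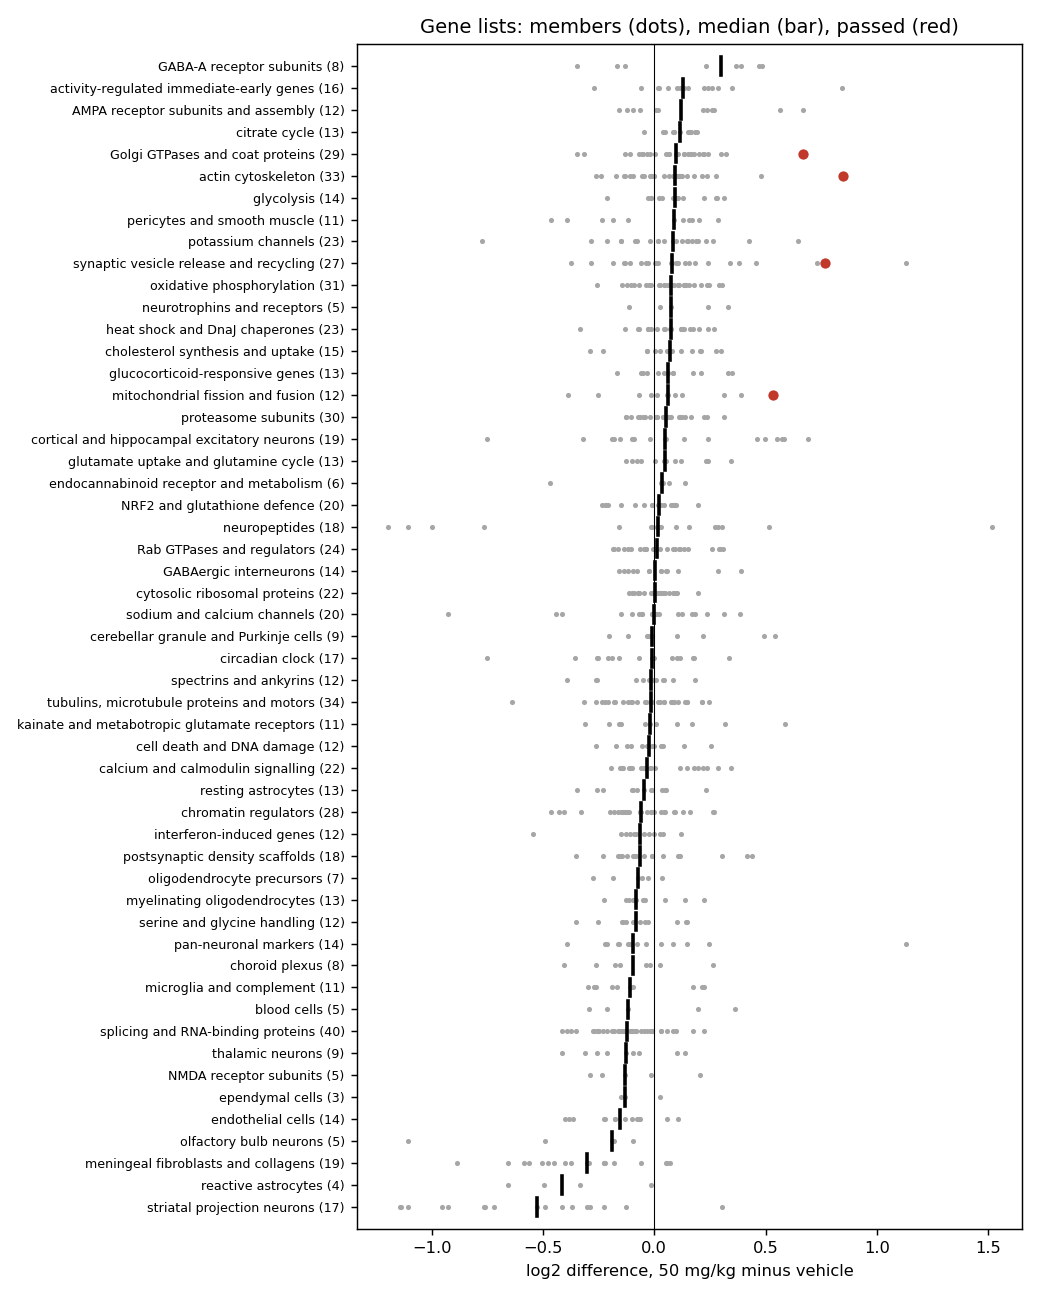
Log2 difference, 50 mg/kg minus vehicle, of every measured member (dots) of the gene lists with at least 3 measured members, the number measured in parentheses, with the list median (black bar) and members with limma's adjusted p under 0.05 in red. The 4 red members are Arl1, Fscn1, Svop and Dnm1l, and the lowest median is that of striatal markers, -0.53.

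Among neuropeptides 0 of 18 passed and the range was the widest of the process lists. Nts, neurotensin, had the largest difference of all genes, 1.52 ± 0.43 (adjusted p = 0.0899 in limma), with 5.64, 7.21, 6.46 and 6.53 in vehicle and 7.24, 8.50, 8.41 and 7.77 at 50 mg/kg, groups separated by a narrow gap. Pmch, melanin-concentrating hormone, had the most negative, -1.20 ± 0.45, which rested on 1 array: vehicle replicate 2 stood at 9.74 and the other vehicle arrays at 6.15 to 6.77, against 5.77 to 6.45 at 50 mg/kg. Rorb, a nuclear receptor of layer 4 cortical neurons, stood at 7.41, 7.43, 6.96 and 7.19 against 6.38, 6.65, 6.54 and 6.40, separate groups with a difference of -0.75 ± 0.20 that did not pass (adjusted p = 0.068 in limma).

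Across doses, the 41 genes were read side by side with their own differences from the same vehicle arrays. Because the genes were chosen at 50 mg/kg and all comparisons share the vehicle arrays, these values are a description. The median difference in the direction called at 50 mg/kg was 0.46 at 5 mg/kg, 0.50 at 20, 0.53 at 50, 0.26 at 200 and 0.17 at 500 mg/kg. Arl1 was at 0.79, 0.91, 0.67, 0.34 and 0.19 at these doses, and Ppargc1a at 0.41, 0.33, 0.51, 0.23 and 0.18. Cc2d2a was at -0.34, -0.43, -0.50, 0.06 and 0.02, and Fam13b at -0.25, -0.29, -0.42, 0.01 and 0.08. These examples were chosen after their values were seen, and Cc2d2a and Fam13b are not typical of the falls. At 200 and 500 mg/kg the median was -0.19 and -0.16 over the 18 falls and 0.27 and 0.17 over the 23 rises. Of the 41 genes, 39 at 200 mg/kg and 37 at 500 mg/kg lay on the side of vehicle called at 50 mg/kg. The Gapdh control ratio also varied by group, at 0.19 ± 0.07, 0.18 ± 0.04, 0.34 ± 0.17, 0.60 ± 0.21 and 0.75 ± 0.14 from 5 to 500 mg/kg. The labels number the animals of each group in a separate run. By animal number the groups follow the order vehicle, 500, 200, 50, 20 and 5 mg/kg, so any order of handling cannot be told apart from dose. The part of the ratio, or of that order, in the values across doses was not tested.

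**Figure D4:**
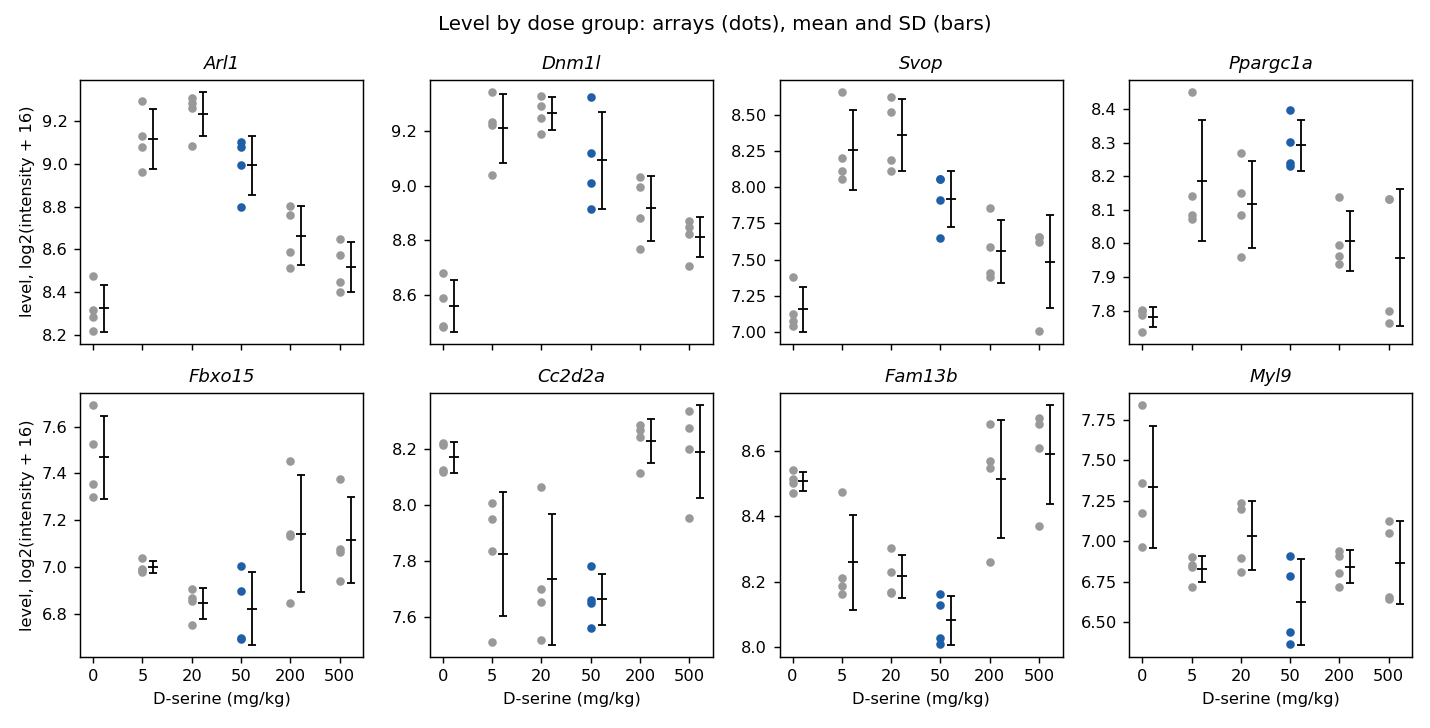
Level (log2(intensity + 16)) of 8 of the genes that passed at 50 mg/kg in each array of the 6 dose groups (dots, 50 mg/kg in blue), with mean and SD (bars, n = 4). At 50 mg/kg all 4 points lie above vehicle for Arl1, Dnm1l, Svop and Ppargc1a and below it for Fbxo15, Cc2d2a, Fam13b and Myl9.

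The direct contrasts between doses, in which the vehicle arrays cancel, called no probe set. Between 50 and 20 mg/kg 0 of 18625 passed (0%, limma), while 1176 reached p under 0.05 before adjustment (6.31%). Between 50 and 5 mg/kg it was 0 and 824 (4.42%), and between 50 and 200 mg/kg 0 and 1320 (7.09%). Among the 41 genes, the contrast with 200 mg/kg was widest in Cc2d2a, -0.56 ± 0.11 (adjusted p = 0.146 in limma), where 200 mg/kg stood at 8.23 ± 0.08 and 50 mg/kg at 7.66 ± 0.09. In Fam13b it was -0.43 ± 0.09 and in Arl1 0.33 ± 0.09. The contrast with 20 mg/kg ranged from -0.44 to 0.41 in the called direction over the 41 genes, with a median of -0.04 and a median SE of 0.11. The median was 0.01 against 5 mg/kg and 0.26 against 200 mg/kg. Of the 41 genes, 17, 22 and 40 lay further from vehicle at 50 mg/kg than at 20, 5 and 200 mg/kg. Before adjustment 7, 2 and 28 had limma's p under 0.05. The genes were chosen at 50 mg/kg, so these counts are a description. That the 50 mg/kg response differs from its neighbours was thus not shown for any gene, nor was it shown to be equal.

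Where several probe sets represent a gene that passed, they did not always move alike. Of the 41 genes, 27 had a single probe set tested. The second probe set of Dnm1l was at 0.57 ± 0.17 and that of Snrpd1 at -0.50 ± 0.21, close to the first, and that of Khsrp at -0.46 ± 0.21. For Arl1 it was at 0.21 ± 0.08 against 0.67, and for Ppargc1a at 0.11 ± 0.13 against 0.51, at 7.75 and 7.78. The other probe sets of Fscn1 were at 0.30 ± 0.14 and 0.44 ± 0.21, and the 3 others of Fbxl20 lay between -0.17 and 0.00. Adipor2 alone had a second probe set on the other side of vehicle, at -0.17 ± 0.15, and that one was slightly brighter in vehicle, at 6.63 against 6.60. The second probe sets of Eef2k, Fam13b, Lamp2 and Larp4b were at -0.26, -0.28, -0.19 and -0.10. Further probe sets passed in 2 genes, Plekhb2 at 1.09 ± 0.16 (adjusted p = 0.00398 in limma) and Cdip1 at 0.65 ± 0.12 (adjusted p = 0.0142 in limma), where the remaining Cdip1 probe set was at 0.15.

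Many more probe sets passed than genes: 161 of 18625 (0.864%), 129 higher (0.693%) and 32 lower (0.172%). The surplus lay in dimmer probe sets of genes that have several. Of the 161, 27 were the sole probe set of their gene, 14 the brightest of several, 98 a dimmer one and 22 carried no single symbol. The 98 belong to 93 genes, 88 of them rose and 10 fell, and in 68 the brightest probe set of the gene lay on the same side of vehicle. Only 2 genes, Plekhb2 and Cdip1, passed in the same direction on the brightest too. Among all genes with several probe sets, 2.83% of 3459 dimmer and 0.534% of 2624 brightest ones passed. The 88 that rose had a median of 0.66, where the brightest of the same genes had 0.09, but the former were chosen by passing.

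Of the 98 dimmer probe sets, 10 had a vehicle mean under the level needed to be tested and so entered through treated groups. The following examples were chosen after their values were seen. Rab5a, the GTPase of early endosomes, had one probe set 0.76 ± 0.12 higher (adjusted p = 0.00576 in limma) and a brighter one at -0.16. Rab11b, of recycling endosomes, had 0.64 against 0.11, Gdi2, which extracts Rabs from membranes, 0.58 against -0.04, and 2 probe sets of Rab5b rose by 0.58 and 0.47 against 0.00. On the Rab list 13 genes had several probe sets and in 4 of them a dimmer one passed, against 93 of 2624 such genes (3.54%) on the whole array, and 0 of the 24 on the list passed on their brightest. The count was made with these 4 genes known and is a description. Cplx1, a complexin that clamps vesicle fusion, rose by 0.67 ± 0.09 (adjusted p = 0.00312 in limma) against 0.14, and Gabrb2, a GABA-A beta subunit, by 1.0 ± 0.17 against -0.13. Plpp3, a lipid phosphate phosphatase, was at 1.67 ± 0.25 (adjusted p = 0.00398 in limma), on a probe set whose vehicle mean of 5.08 was under the level needed to be tested. Its vehicle arrays stood at 4.86, 4.73, 5.04 and 5.69 and its treated arrays at 6.52, 6.68, 6.96 and 6.99, wholly separate, whereas its brightest probe set, at a vehicle mean of 10.29, differed by 0.11.

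The motor proteins Kif5c and Klc1, which together form kinesin-1, each had a dimmer probe set that rose, by 0.92 ± 0.16 and 0.94 ± 0.19, while their brightest were at -0.31 and -0.18. Kcnab2 and Kcnab1, auxiliary subunits of voltage-gated potassium channels, rose by 1.0 and 0.71 on a dimmer probe set against 0.02 and 0.20, the vehicle mean of the Kcnab2 one, 5.97, being under that level. The opposite also occurred. Gnb1, a G protein beta subunit, had a dimmer probe set that fell by 0.56 on the log2 scale and a brightest one at 0.49 (adjusted p = 0.0533 in limma), and Ttll7, a tubulin polyglutamylase, fell by 0.92 against 0.25. Ccnd1, cyclin D1, fell by 0.87 against 0.02. The position of the probe sets along their transcripts was not used here, and whether the RNA ratios above bear on these differences was not tested.

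**Figure D5:**
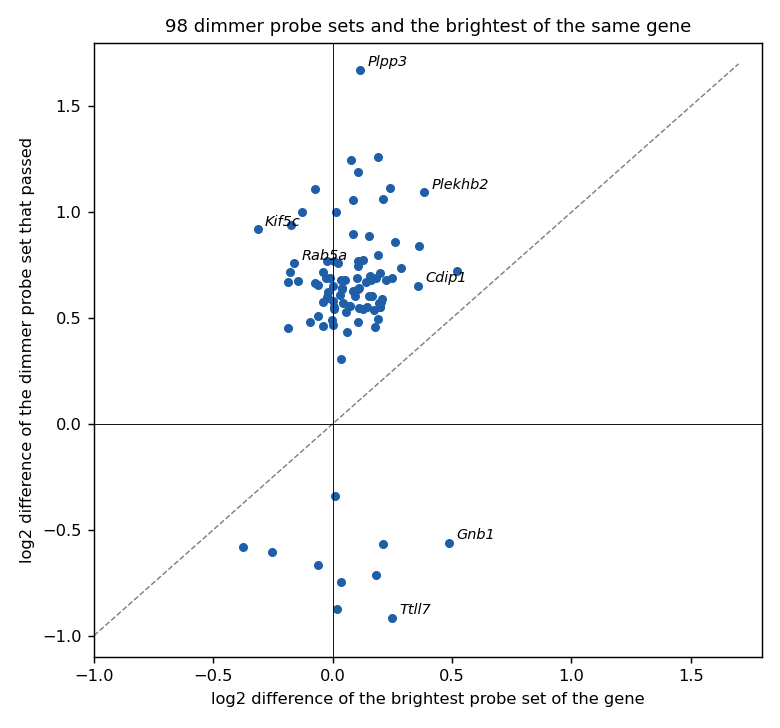
Log2 difference, 50 mg/kg minus vehicle, of the 98 dimmer probe sets that passed (vertical) against that of the brightest probe set of the same gene (horizontal), with the line of equality dashed. Plpp3 stands at 1.67 against 0.11 with a vehicle mean under the level needed to be tested, and Gnb1 and Ttll7 lie below 0 vertically and above 0 horizontally.

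The 4 treated rats lay at similar median distances from vehicle but differed in how often each was the nearest to it. Over the 41 genes the median distance from the vehicle mean, in the called direction, was 0.48, 0.51, 0.51 and 0.53 in replicates 1 to 4. Replicate 1 was the treated array nearest to vehicle in 20 of the 41 genes, and replicates 2, 3 and 4 in 6, 12 and 3. The Gapdh ratios of the same arrays were 0.57, 0.34, 0.27 and 0.18, and their striatal marker levels 9.37, 7.54, 7.55 and 7.57. Replicate 1 thus stood apart in both, and the part of either was not tested. Replicate 1 was the low treated array for Svop, Arl1, Faim2 and Adam10 and the high one for Septin11, Lmbr1 and Cdip1. These genes were chosen on the same arrays, so the distances are given with no test.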

How the data were processed

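Arrays were grouped by the dose in their titles, 4 rats each, and the labels name a separate animal for every array. The authors deposited linear intensity, with 1 value for each probe set, which per the submitters' processing notes came from Affymetrix's GCOS program. Its version and scaling, detection calls and scan dates are not given in the labels or files, so no batch could be tested. Median intensity ran from 56.0 to 82.9 over the 8 arrays.

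All 24 arrays were quantile normalized and taken as log2(intensity + 16). Affymetrix controls and the dimmest 40% by mean level were dropped. The platform annotation, updated through RefSeq's GRCr8 gene table, gave 20832 probe sets 1 symbol, 436 several and 9831 none. One model of 6 group means was fitted with limma 3.58.1 in R 4.3.3 (moderated tests with an intensity trend, Benjamini-Hochberg adjustment). On simulated data with 200 of 18625 probe sets changed between 50 mg/kg and vehicle, the test recovered 38% at a change of 0.5 and 91% at a change of 1, and made 5 false calls. The simulated noise was normal and independent between probe sets, with no differences of tissue or RNA ratio between arrays. These figures therefore do not measure the share of false or missed calls on the real arrays.

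The comparison, its gene lists and the genes named (15 largest rises and falls that passed, list members that passed or had the 3 smallest p, and 18 genes of D-serine handling, receptors, activity and glia) were chosen with earlier results of these data known. Genes beyond the rule are the other genes that passed and the dimmer probe sets. Alternatives were other normalizations, filters, pseudocounts and moderation, weighting of arrays, a single probe set per gene, a fit of only the 8 arrays, a Gapdh ratio covariate and leaving out each array. Removal of 2 pairs of arrays was chosen after seeing the data. For arrays, their number limits the precision.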

Additional observations from a re-analysis of the deposited data

Results flagged for a closer look

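Of 116 groups of 4 arrays, for 55 genes and 3 control ratios in vehicle and at 50 mg/kg, 6 had 1 array far from the other 3, and chance alone gives about 1 group in 20. In the 50 mg/kg group, replicate 3 was highest for Ttr, at 13.02 against 6.11 to 7.02, lowest for Egr1, at 10.78 against 10.84 in the other 3, and lowest for Larp4b, at 9.52 against 9.63 to 9.64. Replicate 1 of that group was lowest for Grin1, at 8.64 against 8.88 to 8.91, and for Clta, at 10.57 against 10.73 to 10.75. In the vehicle group, replicate 1 was lowest for Casc3, at 6.35 against 6.88 to 6.99.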

How the results depend on the processing

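The 161 probe sets of 50 mg/kg against vehicle (80.1% higher) became 107 with median centring (91.6% higher), 56 with values as deposited (100% higher), 102 with no filter, 720 with array weights, 55 with only the 8 arrays, and 0 with the Gapdh ratio as covariate, with all arrays (1164 at an unadjusted p under 0.05 in limma) or without 500 mg/kg replicate 4 (905). Fitted with 1 probe set per gene, 16 of the 41 genes passed. Leaving out 1 array gave 18 to 452. The removals chosen after seeing the data gave 22, 248 and 32. Pseudocounts of 1 and 64, a filter of 60%, no trend and robust moderation gave 151 to 175. The direct contrasts with 0 calls gave 1 call for 5 mg/kg with no filter, and for 200 mg/kg 1 with a filter of 60% and 2 with the covariate. With 1 array left out they gave 0 to 6 for 20 mg/kg, 0 to 1 for 5 mg/kg and 0 to 10 for 200 mg/kg. Of the 41 genes, 18 still passed with median centring, 24 with no filter, 4 with values as deposited, 4 with only the 8 arrays and 4 to 41 with 1 array left out (lowest without 50 mg/kg replicate 4). The removals left 5, 29 and 4 of them and the covariate 0. No gene that passed changed sign under any of these settings in which it was tested, which with a filter of 60% was 36 of the 41. The genes were chosen on these same arrays, so the kept signs follow largely from that choice. No paired analysis was possible because the labels number each animal separately and the replicate numbers only name arrays.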
